A study of Mus musculus with 16 samples.

Results

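The genes described here are 4 of the 770 genes of a NanoString immune panel: Abca1, Abcg1 and Apoe, which move cholesterol out of cells, and Hsd11b1, an enzyme that makes active glucocorticoid. They were chosen by name from the deposited values, with their levels in the 4 groups of tumours and in each tumour already in view. Differences between those groups are therefore given as a description, with their errors and without p-values. All 4 were found in the table, and all 4 were among the 712 genes whose mean reached the level of the negative-control probes (24.0 normalized counts), the genes used in every fit.

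ABCA1 is a membrane transporter that passes cholesterol and phospholipid to lipid-poor apolipoproteins, and ABCG1 passes cholesterol on to high-density lipoprotein particles. Apolipoprotein E, which macrophages secrete in large amounts, takes up that lipid and is a ligand of the LDL receptor family. In macrophages loaded with cholesterol, the oxysterol-sensing nuclear receptors LXR alpha and LXR beta switch on all 3 of these genes. The enzyme 11-beta-hydroxysteroid dehydrogenase type 1, the product of Hsd11b1, turns inert 11-dehydrocorticosterone into corticosterone inside the cell, and it is known from macrophages, fibroblasts, liver and fat. The LXR genes Nr1h3 and Nr1h2 and the glucocorticoid receptor gene Nr3c1 were looked for by name and were not among the genes measured.

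Colour-coded probes counted RNA without amplification in 16 mouse tumours, taken as 1 per mouse. MC38 is a colorectal and E0771 a breast cancer line of the mouse, each injected as 500000 cells with Matrigel at the right shoulder. All mice, hypoxic and normoxic alike, had been given immunotherapy against PD-1 and CTLA-4, the T cell checkpoint receptors, and the tumours were removed once the day 5 imaging was done; untreated tumours were not analysed here. The groups were 4 normoxic MC38 tumours (mice 4, 7, 10 and 21), 4 hypoxic MC38 tumours (mice 12, 14, 17 and 25), 5 normoxic E0771 tumours (mice 4, 17, 38, 65 and 71) and 3 hypoxic E0771 tumours (mice 12, 22 and 55). The hypoxia status is the class in the labels of a study that imaged hypoxia by PET. Strain, sex and age of the mice were not stated in the sources. Each model is a single cell line in bulk tumour, so fewer cells of a type and less RNA per cell cannot be told apart in any result below.

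Levels are normalized counts: whole probe counts multiplied by 1 factor per tumour, which gives the 20 housekeeping genes the same geometric mean (780) in every tumour. A difference is therefore relative to those genes. Gene counts before scaling, estimated by dividing by that factor, ran from 180274 to 890239 per tumour. The 5 tumours with the fewest were E0771 hypoxic 22 and 12, MC38 hypoxic 14 and 25, and E0771 normoxic 65. MC38 normoxic 4 stood apart with a summed signal of 1365010 normalized counts over all genes, against 388239 to 836892 in the others. Every value of Abca1, Abcg1 and Apoe was at least 6.95 times the scaled mean of its tumour's negative probes. Hsd11b1 came closest to that background, with 1.90 times in MC38 hypoxic 25 (11.2 normalized counts from 9 estimated counts) and 3.15 times in E0771 hypoxic 12.

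To show what lies at their starts, the RefSeq windows (build GRCm38.p6, 250 bases before to 50 after a start site) were searched for the spacing of an LXR response element. The motif was GGTNA, then any 5 letters, then GGTNA, on either strand. Windows were listed for 3 of the 4 genes, 1 each for Abca1 and Hsd11b1 and 3 for Apoe. The Abca1 window at chr4:53159846-53160145 (minus strand) held 1 such repeat, beginning 67 bases before the start and read on the opposite strand, and 0.718% of the 32851 windows of all genes held one. That window also held ACGTG, the core letters of a hypoxia response element, on both strands of 1 palindrome, as 19.6% of all windows did on either strand. Neither motif was found in the Hsd11b1 window at chr1:193242311-193242610 (minus strand) or in the 3 Apoe windows, of which the one farthest upstream is chr7:19699139-19699438 (minus strand). A match describes letters only. Capitals mark the matches, and each line runs 5′ to 3′ in the direction of the gene.
Abca1: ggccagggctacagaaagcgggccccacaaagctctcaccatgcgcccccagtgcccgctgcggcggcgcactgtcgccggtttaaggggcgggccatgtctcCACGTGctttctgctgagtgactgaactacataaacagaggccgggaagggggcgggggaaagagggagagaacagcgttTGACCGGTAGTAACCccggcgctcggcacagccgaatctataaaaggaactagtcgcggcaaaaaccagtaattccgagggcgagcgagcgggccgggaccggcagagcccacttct
Hsd11b1: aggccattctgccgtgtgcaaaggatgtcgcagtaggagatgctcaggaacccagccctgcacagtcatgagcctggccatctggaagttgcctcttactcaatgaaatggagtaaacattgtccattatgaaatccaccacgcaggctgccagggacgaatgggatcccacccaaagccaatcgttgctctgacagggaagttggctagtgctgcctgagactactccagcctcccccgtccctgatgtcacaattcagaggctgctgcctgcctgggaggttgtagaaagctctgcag
Apoe: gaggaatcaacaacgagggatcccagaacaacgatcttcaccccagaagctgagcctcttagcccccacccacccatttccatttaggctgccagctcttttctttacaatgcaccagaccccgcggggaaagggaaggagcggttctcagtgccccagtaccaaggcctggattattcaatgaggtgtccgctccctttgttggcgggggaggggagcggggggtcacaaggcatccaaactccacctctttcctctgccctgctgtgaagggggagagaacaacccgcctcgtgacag

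In MC38, Hsd11b1 had the largest difference of the 4 genes between hypoxic and normoxic tumours. In normoxic MC38 tumours it was at 1052, 648, 102 and 358 normalized counts (mice 4, 7, 10 and 21). In the hypoxic ones it was at 49.0, 66.1, 103 and 11.2 (mice 12, 14, 17 and 25). Mouse 10 alone kept the groups from separating, since its 102.0 lay just under the 103.2 of hypoxic mouse 17, and the other 3 normoxic tumours were above every hypoxic one. The means were 540 ± 408 and 57.4 ± 38.2 (SD, n = 4 and 4). On the scale of log2(value + 1) the hypoxic level was lower by a difference of -3.13 ± 0.79 (SE; 95% interval -4.79 to -1.48), about 8.77-fold, and 31 of the 712 genes had a lower difference.

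In E0771 the values of Hsd11b1 were 678, 96.3, 622, 584 and 361 in normoxic tumours (mice 4, 17, 38, 65 and 71) and 54.7, 148 and 208 in hypoxic ones (mice 12, 22 and 55). Normoxic mouse 17 lay inside the hypoxic range and the other 4 normoxic tumours above it. The difference was -1.69 ± 0.81 (95% interval -3.40 to 0.02), and 11 genes had a lower one. In this line the order of the members turned with single tumours. Without normoxic 4, Hsd11b1 was at -1.49, Abca1 at -1.72 and Apoe at -2.05, and without hypoxic 22 they were at -1.84, -2.27 and -2.58. Averaged over both lines the difference was -2.41 ± 0.56, with 7 genes lower. Between normoxic tumours of the lines it had a difference of -0.04 (95% interval -1.61 to 1.53) for E0771 minus MC38.

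Abca1, the transporter to lipid-poor apolipoprotein, was at 3674, 919, 685 and 953 normalized counts in normoxic MC38 tumours (mice 4, 7, 10 and 21) and at 293, 436, 647 and 123 in hypoxic ones (mice 12, 14, 17 and 25). Here the groups did not overlap, by the narrow step from 647 to 685. The same was true of 24.3% of all genes, with every hypoxic MC38 tumour below every normoxic one. The difference was -1.94 ± 0.79 (95% interval -3.61 to -0.26), beside a median of -1.27 over all 712 genes. In E0771 it was at 247, 333, 2025, 1088 and 1647 in normoxic tumours (mice 4, 17, 38, 65 and 71) and at 121, 1211 and 217 in hypoxic ones (mice 12, 22 and 55). These groups overlapped broadly: hypoxic mouse 22 lay above normoxic 4, 17 and 65, and the difference was -1.31 ± 0.82 (95% interval -3.03 to 0.42). None of the 4 members separated in E0771, where 0.562% of all genes had every hypoxic tumour below the normoxic ones.

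Apoe had the highest counts of the 4 probes, which says nothing of its level against the others because probes differ in efficiency. Normoxic MC38 tumours held 25453, 10054, 5078 and 11259 normalized counts (mice 4, 7, 10 and 21) and hypoxic ones 3734, 8559, 5514 and 1088 (mice 12, 14, 17 and 25). The hypoxic values of mice 14 and 17 lay above normoxic mouse 10, and the difference was -1.56 ± 0.88 (95% interval -3.41 to 0.28). In E0771 the normoxic values were 2763, 4385, 36490, 22083 and 21315 (mice 4, 17, 38, 65 and 71), in a low set of 2 mice and a high set of 3. The hypoxic values were 1961, 17076 and 1922 (mice 12, 22 and 55), with mouse 22 near the high normoxic tumours. That difference was -1.53 ± 0.90 (95% interval -3.44 to 0.38), beside a median of all genes of -0.36. Leaving out 1 tumour moved it from -2.58 (without hypoxic 22) to -1.0003 (without hypoxic 55), and that of Abca1 from -2.27 (without hypoxic 22) to -0.62 (without hypoxic 12). With each tumour centred on its median gene, Apoe was at -0.44 in MC38 and -1.10 in E0771.

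Abcg1, which loads high-density lipoprotein, had larger fitted differences between lines than between hypoxia classes with the deposited scaling. Normoxic MC38 tumours held 1237, 246, 225 and 204 normalized counts (mice 4, 7, 10 and 21) and hypoxic ones 116, 397, 245 and 102 (mice 12, 14, 17 and 25). In E0771 the values were 283, 541, 915, 1312 and 1017 in normoxic tumours (mice 4, 17, 38, 65 and 71) and 721, 1176 and 517 in hypoxic ones (mice 12, 22 and 55). Only MC38 normoxic 4 among the MC38 tumours exceeded 397, whereas 7 of the 8 E0771 tumours did. Hypoxic minus normoxic was -0.90 ± 0.61 in MC38 and 0.09 ± 0.63 in E0771 (95% intervals -2.17 to 0.38 and -1.23 to 1.41). Scaled on the positive-control probes instead of the housekeeping genes, it was -0.77 in MC38 and -1.12 in E0771, beside medians of -1.14 and -1.52 over all genes. E0771 minus MC38 was then 0.94 in normoxic and 0.60 in hypoxic tumours, beside medians of -0.61 and -1.03 over all genes.

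**Figure D1:**
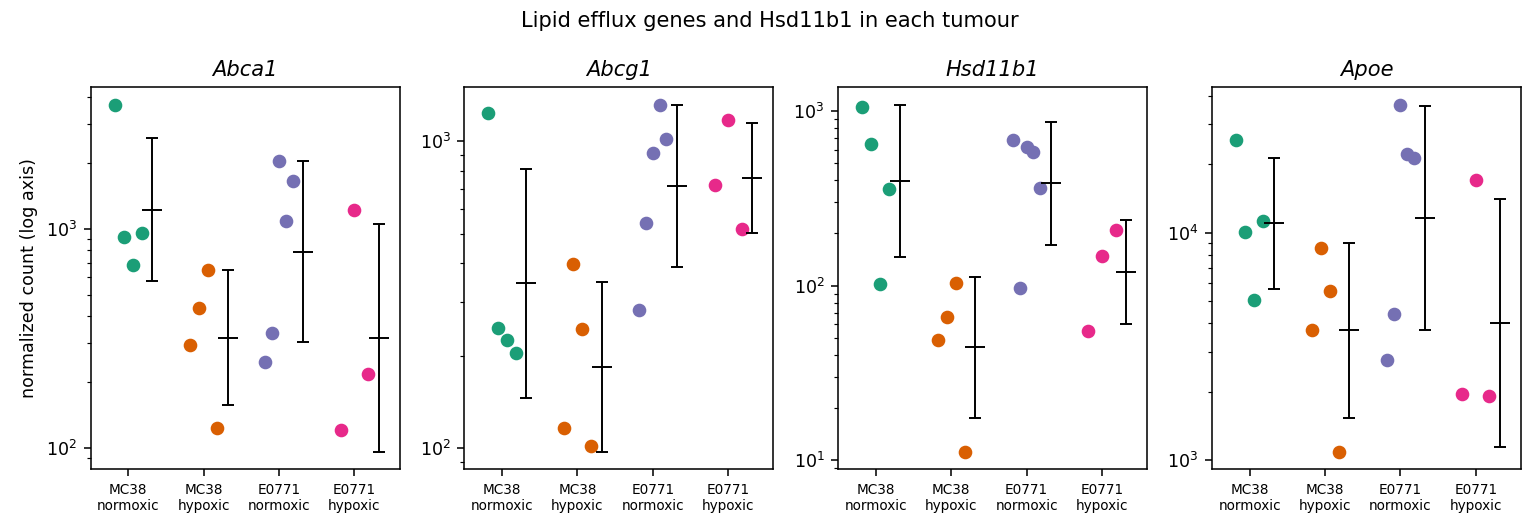
Each point is 1 tumour, with the normalized count on a log axis and the 4 groups along the x axis. Black marks are the geometric mean and 1 SD on the log2 scale (n = 4, 4, 5 and 3). The geometric mean of Hsd11b1 is lower in both hypoxic groups, Abca1 and Apoe share the same high and low E0771 tumours, and Abcg1 is higher in most E0771 tumours than in most MC38 tumours.

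By the fit across all genes (limma, Benjamini-Hochberg adjusted p under 0.05), 1 of the 4 genes, Hsd11b1, was called lower in hypoxic MC38 tumours, where 48.0% of all genes were (342 genes, but 171 without MC38 hypoxic 25, 175 without MC38 normoxic 4 and 204 without MC38 normoxic 7). In E0771 none of the 4 was called, as 0% of all genes were (45 of 712 had an unadjusted p under 0.05, and 1 gene that is no member was called without E0771 normoxic 17). For the mean of both lines Hsd11b1 and Abca1 were called lower, beside 41.4% of all genes. Since the genes were chosen with these differences known, nothing is read from the counts. No gene of the panel was called for a difference between the lines in the hypoxia effect (133 of 712 had an unadjusted p under 0.05), although 132 were without MC38 normoxic 10, none of them a member. For the members that difference, E0771 minus MC38, was 0.63 ± 1.14 for Abca1, 0.98 ± 0.87 for Abcg1, 1.44 ± 1.13 for Hsd11b1 and 0.03 ± 1.26 for Apoe.

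Single tumours decided some of these calls, which are given only to show that dependence. Over the 16 fits that left out 1 tumour, Hsd11b1 ranged from -3.78 to -2.50 in MC38. Its call for the averaged effect was lost without E0771 hypoxic 12, where no panel gene was called. The call of Abca1 for the mean of both lines was lost without MC38 normoxic 4 or 7, MC38 hypoxic 12 or 25, E0771 normoxic 38, 65 or 71, E0771 hypoxic 12, and without E0771 hypoxic 55 (-2.10 to -1.28 over the 16). Apoe, not called with all tumours, was called for the mean of both lines without MC38 normoxic 10, E0771 normoxic 4 or 17, or E0771 hypoxic 22 (-2.07 to -1.25 over the 16). In MC38 alone Abca1 was not called with all tumours and passed when any of MC38 normoxic 10, MC38 hypoxic 17, E0771 hypoxic 12 and 22, and E0771 normoxic 4, 17 and 38 was left out (-2.28 to -1.40 over the 16). Without the 5 tumours of fewest counts together, no panel gene was called in MC38 or for the mean, and Hsd11b1 was at -2.47 in MC38. There Hsd11b1 was at -0.74 in E0771, against -1.74 for Abca1 and -2.36 for Apoe, and for the mean it was at -1.60, against -1.61 and -1.82. Only E0771 hypoxic 55 remains of the hypoxic E0771 tumours in that fit. With each tumour centred on its median gene, Hsd11b1 was lower and called in MC38 (-2.01). That fit called 190 of the 712 genes in MC38, 115 of them lower. Abca1 was at -0.81 there and not called. Abcg1 changed sign to 0.22, so the deposited difference of Abcg1 was smaller than that of the typical gene.

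**Figure D2:**
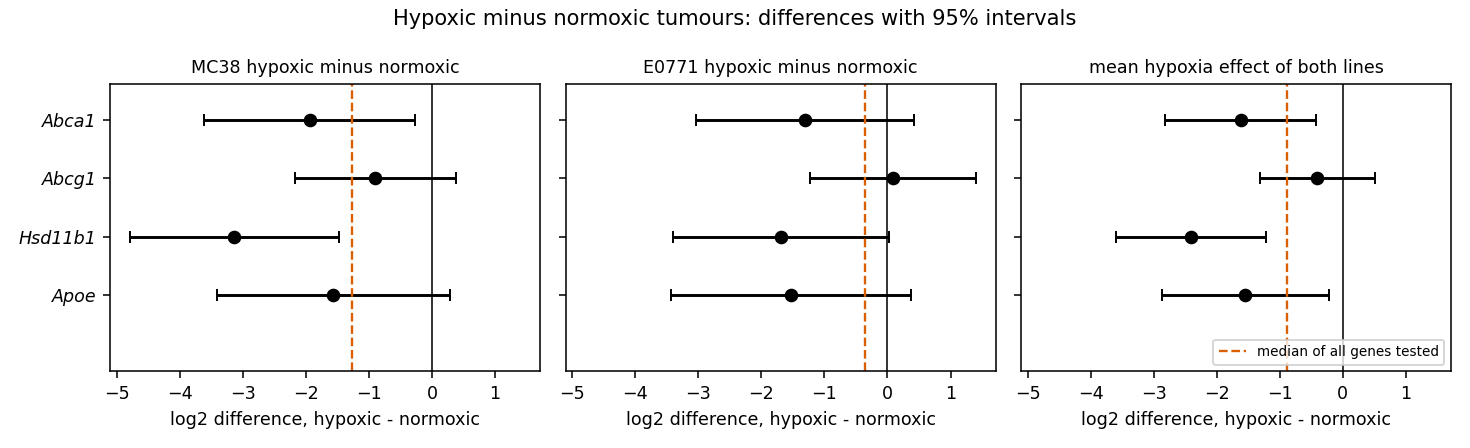
Points are log2 differences of hypoxic minus normoxic tumours, bars their 95% intervals, and the dashed line the median of all 712 genes (-1.27 in MC38, -0.36 in E0771, -0.89 for the mean). Hsd11b1 lies farthest below the median in each panel, and Abcg1 lies above it in each.

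Compared between lines, Abcg1 stood near the top of the panel. In hypoxic tumours it was 4.11-fold higher in E0771 (log2 difference 2.04 ± 0.65; 95% interval 0.66 to 3.42; 805 ± 337 against 215 ± 137 normalized counts, SD, n = 3 and 4), and 19 of the 712 genes had a higher difference. The lowest hypoxic E0771 value, 517, was above the highest hypoxic MC38 value, 397, which held for Abcg1 alone of the 4 and for 13.8% of all genes. In normoxic tumours the difference was 1.05 ± 0.57 (95% interval -0.16 to 2.26; 813 ± 405 against 478 ± 506, n = 5 and 4), with 18 genes higher. The normoxic groups overlapped in all 4 members, and 1.97% of all genes had every E0771 tumour above every MC38 tumour. None of the members was called higher in E0771 among normoxic or among hypoxic tumours, where 1.40% and 4.49% of all genes were. Abcg1 was called in hypoxic tumours in 3 of the 16 fits that left out 1 tumour (1.72 to 2.41 over the 16). They were those without MC38 normoxic 4, MC38 hypoxic 14 or E0771 normoxic 4. Without MC38 normoxic 4, 72 of the 712 genes were called, and without MC38 hypoxic 14, 48 were. On the scale centred on each tumour's median gene, Abcg1 was called higher in E0771 in both normoxic and hypoxic tumours (1.42 and 1.71). That fit called 111 of the 712 genes in normoxic tumours, 88 of them lower, and 60 in hypoxic tumours, 38 of them lower. Scaled on the positive-control probes instead of the housekeeping genes, the difference in hypoxic tumours was 0.60 and not called. The median of all genes was then -1.03, against 0.37 as deposited. That scaling takes no account of a tumour's total gene count, which was lowest in E0771 hypoxic 22 and 12 (180274 and 192035). Line and any batch that coincides with it cannot be told apart.

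For the other 3 genes the intervals of the differences between the lines all included 0. In normoxic tumours E0771 minus MC38 was -0.63 ± 0.75 for Abca1 and 0.07 ± 0.83 for Apoe, and in hypoxic tumours it was -0.00 ± 0.86 and 0.11 ± 0.95. Hsd11b1 was at 1.40 ± 0.85 in hypoxic tumours (95% interval -0.39 to 3.19). Scaled on the positive-control probes, the differences in hypoxic tumours were -1.44 for Abca1, -1.34 for Apoe and -0.01 for Hsd11b1, beside a median of -1.03 over all genes. From high to low, the geometric mean of Abca1 ran from normoxic MC38 (1219) over normoxic E0771 (786) to hypoxic MC38 (318) and hypoxic E0771 (317). Apoe ran from normoxic E0771 (11579) and normoxic MC38 (10998) to hypoxic E0771 (4008) and hypoxic MC38 (3721), and Hsd11b1 from normoxic MC38 (398) and normoxic E0771 (386) to hypoxic E0771 (119) and hypoxic MC38 (44.4). Abcg1 had another order, with hypoxic E0771 (760) and normoxic E0771 (715) before normoxic MC38 (344) and hypoxic MC38 (184). Neighbours in these orders differed by less than the larger of their SDs on the log2 scale, apart from the steps of Hsd11b1 from 386 to 119 and from 119 to 44.4.

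The ratio of Abcg1 to Abca1 within a tumour does not contain the tumour's scaling factor. It was 0.215 to 0.337 in the 4 normoxic MC38 tumours, 0.379 to 0.909 in the 4 hypoxic ones, 0.452 to 1.62 in the 5 normoxic E0771 tumours and 0.971 to 5.96 in the 3 hypoxic ones. Each normoxic MC38 tumour thus lay below all others, and each hypoxic E0771 tumour lay above all MC38 tumours. The highest ratio, in E0771 hypoxic 12, rests on 53 estimated counts of Abca1 and 316 of Abcg1. The ratio of Apoe to Abca1 had a narrower range, 6.93 to 20.3, over tumours in which Apoe ran from 1088 to 36490. These ratios were computed after the values had been seen and were not tested. How many other pairs of genes order the tumours in this way was not counted.

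**Figure D3:**
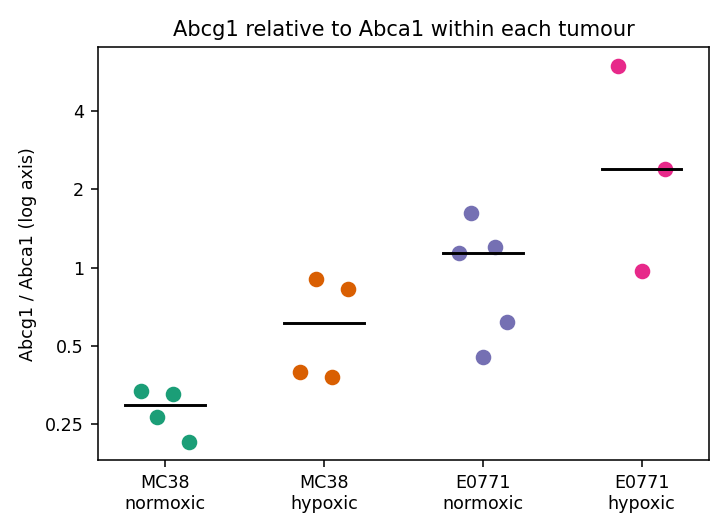
Points are the ratio of Abcg1 to Abca1 normalized counts in each tumour on a log axis, and lines are group medians (0.298, 0.612, 1.14 and 2.39). Its absolute size depends on the 2 probes, so only the order of tumours can be read.

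Whether the genes vary together inside a group was asked on deviations from the group means, which use no difference between groups. The levels in each tumour were also in view when the genes were chosen. The p-values here therefore describe these tumours and are no independent test. Each tumour was first centred on its median gene. Abca1 and Apoe rose and fell together over the 16 tumours (Pearson r = 0.903, exact permutation of tumours within groups, two-sided p = 0.000415, adjusted p = 0.00249 over the 6 pairs of members; Spearman rho = 0.926, p = 0.000593, adjusted p = 0.00356). The r was 0.785 over the 8 MC38 tumours and 0.956 over the 8 E0771 tumours, and 0.882 without E0771 hypoxic 22 and MC38 normoxic 4, the tumours farthest out in Abca1. Abcg1 followed both less closely, with r = 0.521 to Abca1 (rho = 0.409; exact permutation p = 0.0543 and 0.134, adjusted 0.109 and 0.269) and 0.524 to Apoe (rho = 0.444; p = 0.0300 and 0.0939, adjusted 0.0899 and 0.269). Leaving out the 2 tumours farthest out gave 0.412 for Abca1, and 0.397 for Apoe (here MC38 normoxic 4 and MC38 hypoxic 14, farthest in Abcg1).

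Hsd11b1 was not shown to follow the lipid genes. Its r was 0.178 to Abca1 (rho = 0.197; exact permutation p = 0.542 and 0.508, adjusted 0.741 and 0.583), 0.148 to Apoe (rho = 0.165; p = 0.617 and 0.583, adjusted 0.741 and 0.583) and -0.03 to Abcg1 (rho = -0.168; p = 0.920 and 0.574, adjusted 0.920 and 0.583). Within lines it was positive in MC38 (0.675, 0.759 and 0.353) and negative in E0771 (-0.174, -0.237 and -0.701), values over 8 tumours each whose difference was not tested. Without the 2 tumours farthest from the median of the first gene, the 3 values were 0.121, -0.201 and -0.440, so none turned into a clear positive relation. Normoxic E0771 mouse 4 showed this most: it had the highest Hsd11b1 of its group and the lowest Abca1, Abcg1 and Apoe. On the deposited scale, where most genes of the panel share tumour-wide shifts, the 6 values were 0.447 to 0.953. The median r of a member with all other genes was 0.433 to 0.573 on that scale.

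**Figure D4:**
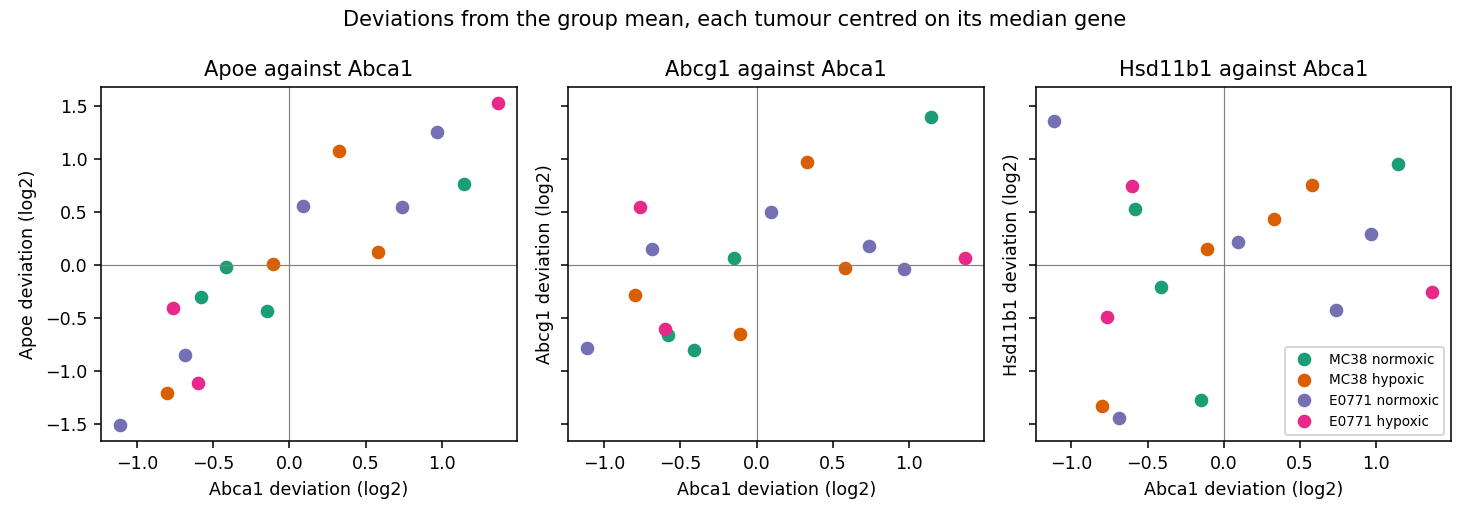
Each point is a tumour's deviation from its group mean on the log2 scale after centring on its median gene, with Abca1 on the x axis and Apoe, Abcg1 or Hsd11b1 on the y axis. Apoe falls along a line with Abca1 (r = 0.903), Abcg1 less so (0.521), and Hsd11b1 shows no line (0.178).

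The genes most like each member on this scale, by r over the 16 tumours, were sought among the 711 other genes. Nearest to Abca1 were Mertk (r = 0.917), a receptor with which macrophages take up dying cells, then Apoe, Tlr8 (0.881), an endosomal sensor, Itga4 (0.862), an integrin chain of leukocytes, and Cd84 (0.846), a receptor of leukocytes. Nearest to Apoe were Abca1, Mertk (0.895), the chemokine gene Cxcl12 (0.882), the lysozyme gene Lyz2 (0.876) and Ikzf1 (0.856), a haematopoietic transcription factor. Abcg1 was most like Inpp5d (0.853), which encodes the phosphatase SHIP1, Ncf4 (0.847), a subunit of the phagocyte oxidase, the macrophage marker Cd68 (0.845), the TNF receptor gene Tnfrsf1b (0.838) and Il3ra (0.838). Hsd11b1 was most like Ccl11 (0.835), the eosinophil chemokine eotaxin, Cd55 (0.819), a complement regulator, Tnfsf14 (0.803), which encodes LIGHT, Btk (0.791), a kinase of B and myeloid cells, and Cd200r1 (0.786), an inhibitory receptor of myeloid cells. The median r with the other genes was -0.06 for Abca1, 0.00 for Apoe, -0.02 for Abcg1 and 0.06 for Hsd11b1.

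Macrophage marker genes differed between the MC38 groups as well. Of 18 marker names listed, with Emr1 and Adgre1 naming the same gene, 17 were measured and none was at its floor in any tumour. Their summed level was 21179 to 118142 normalized counts in normoxic and 6471 to 25930 in hypoxic MC38 tumours, and 21053 to 90629 in normoxic and 14746 to 41248 in hypoxic E0771 tumours. In MC38 11 of the 17 were called lower and none higher in hypoxic tumours (median difference -1.56), from the mannose receptor Mrc1 (-3.15) to the fractalkine receptor Cx3cr1 (-0.13, not called). Beside 48.0% of all genes called lower, with a median of -1.27, the calls were 3 of 7 for fibroblast markers (median -1.55), 4 of 8 for T cells (-1.67), 5 of 6 tested for neutrophils (-2.85) and 2 of 7 for endothelium (-0.40). In E0771 none of the markers of these 5 cell types was called, with medians of -0.87 for macrophages, -0.88 for fibroblasts, -1.13 for T cells, 0.13 for neutrophils and -0.71 for endothelium. Fibroblast markers summed to 9619 to 81463 in normoxic and 5045 to 11988 in hypoxic MC38 tumours, and to 5935 to 25655 and 4976 to 42769 in E0771. The part of these cells in the members' differences was not tested. Of the epithelial markers Epcam and Cdh1 passed the filter, with sums of 74.7 to 788 in normoxic and 16.2 to 118 in hypoxic MC38 tumours and of 32.7 to 1239 and 23.9 to 282 in E0771, and Muc1 was below the filter.

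Relative to the mean log2 level of the 17 macrophage markers of the same tumour, Hsd11b1 was lower in hypoxic MC38 tumours. It stood at -2.86 ± 0.61 (SD, range -3.75 to -2.45) in hypoxic and -1.28 ± 0.70 (-2.20 to -0.49) in normoxic MC38 tumours. These ranges did not overlap, by the step from -2.45 in hypoxic 12 to -2.20 in normoxic 10. The lowest value, in hypoxic 25, rests on 9 estimated counts. The share of all genes that separate in this way was not counted. In E0771 Hsd11b1 was at -2.09 ± 0.75 in hypoxic and -1.13 ± 1.10 in normoxic tumours, with overlap. Apoe was at 3.49 ± 0.63 in hypoxic and 3.50 ± 0.10 in normoxic MC38 tumours, and at 2.97 ± 1.32 and 3.78 ± 0.84 in E0771. Abca1 was at -0.05 ± 0.26 in hypoxic and 0.33 ± 0.33 in normoxic MC38 tumours, and at -0.68 ± 1.17 and -0.10 ± 0.63 in E0771. Abcg1 was at -1.49 ± 0.61 in normoxic and -0.84 ± 0.47 in hypoxic MC38 tumours and at -0.24 ± 0.34 in normoxic and 0.57 ± 0.49 in hypoxic E0771 tumours. Against the mean of the 7 fibroblast markers, Hsd11b1 was at -3.16 ± 0.93 in hypoxic and -1.36 ± 0.63 in normoxic MC38 tumours.

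**Figure D5:**
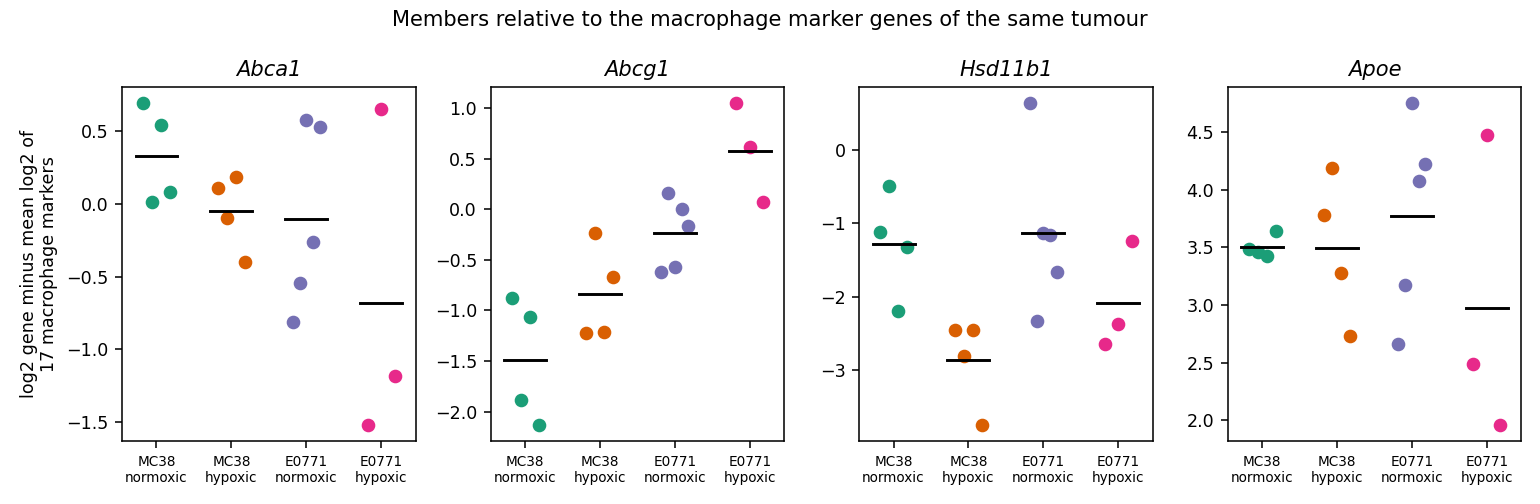
Points are each tumour's log2 level of a member minus the mean log2 level of 17 macrophage marker genes, by group, and lines are group means. All 4 hypoxic MC38 tumours lie below the normoxic ones for Hsd11b1, the MC38 groups have the same mean for Apoe, and the 3 hypoxic E0771 tumours lie above all MC38 tumours for Abcg1. How many of all genes separate on this scale was not counted.

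Other genes of cholesterol and lipid handling were measured for 10 of 30 listed. In MC38 the median difference of the 10 was -1.38, beside -1.27 for all genes. Beside 48.0% of all genes called lower, 5 of the 10 were called lower in hypoxic tumours and none higher. They were the phospholipase gene Pla2g1b (-2.94 ± 0.65), the lipid-sensing nuclear receptor gene Pparg (-2.38 ± 0.65), the fatty acid and oxidized LDL scavenger receptor gene Cd36 (-2.23 ± 0.77), the lipid receptor gene Trem2 (-2.09 ± 0.67) and Lrp1 (-1.43 ± 0.46), which encodes an endocytic receptor for apolipoprotein E. The scavenger receptor genes Msr1 (-1.33 ± 0.57) and Marco (-0.16 ± 0.73) were not called, and neither was clusterin, Clu (0.71 ± 0.40), another secreted apolipoprotein. In E0771 none of the 10 was called (median -0.40), with Cd36 at -1.94 ± 0.79 and Lrp1 at 0.16 ± 0.48. Between lines, Clu was called higher in E0771 in normoxic (1.94 ± 0.38) and hypoxic tumours (1.60 ± 0.43), Lrp1 in hypoxic tumours (2.04 ± 0.50), and Pla2g1b was called lower in normoxic E0771 tumours (-2.64 ± 0.61).

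Of 15 genes listed for glucocorticoid action, 5 were measured, all of them genes that glucocorticoid is known to induce in some cells. In MC38 3 of the 5 were called lower in hypoxic tumours, beside 48.0% of all genes. The 3 were the haemoglobin scavenger receptor gene Cd163 (-4.00 ± 0.99), the decoy interleukin-1 receptor gene Il1r2 (-1.84 ± 0.62) and Mertk (-1.79 ± 0.62). Annexin A1, Anxa1, was at -0.99 ± 0.43 and the NF-kB inhibitor gene Nfkbia at -0.36 ± 0.31, not called. None of the 5 was called in E0771 (median -0.65), where Cd163 was at -0.74 ± 1.02 and Mertk at -0.50 ± 0.64. Among genes for the uptake of dying cells 7 of 10 measured were called lower in hypoxic MC38 tumours (median -1.49, beside 48.0% and -1.27 for all genes) and 0 of 10 in E0771 (median -0.39). The MC38 genes included Timd4 (-2.54 ± 0.66) and Mertk, while the receptor gene Axl (0.06 ± 0.29) and the bridging protein gene Mfge8 (0.03 ± 0.31) were not. Cd36, Lrp1 and Mertk each stand in 2 of these lists.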

How the data were processed

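RNA of 16 tumours was measured with a NanoString mouse immune panel of 770 genes, 8 negative and 6 positive control probes. The deposited values are a normalized signal on a linear scale; the authors' software and steps are not stated in the labels. Gene values were whole multiples of 1 factor per tumour (0.631 to 3.52; 100% to within 0.1 of the factor), so estimated counts could be had by division. Control probes were unscaled, and values under 1 stood at 1.

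Genes with a mean of at least 24.0, the mean plus 2 SD of the scaled negative probes, were tested (712; 58 left out). Values entered limma 3.58.1 (R 4.3.3, lmFit, eBayes with trend) as log2(value + 1), which understates changes of low genes, with 4 group means and no covariates; adjusted p-values are Benjamini-Hochberg over 712 genes. The fit was checked on data with known changes. Correlations used all 414720 orders of tumours within groups. The members and gene lists were chosen with earlier results of these data known. Named genes are the members, the 5 genes most like each and genes of the fixed lists. Labels name the mice by line and number. Numbers 4, 12 and 17 occur in both lines and were taken as separate mice, so no pairing between groups was used. Alternatives covered scaling, filter, pseudocount, background, variance estimation, single-line fits and left-out tumours; limma with voom weights and leaving out 3 E0771 tumours were added after seeing the data.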

Additional observations from a re-analysis of the deposited data

Results flagged for a closer look

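MC38 normoxic 4 lay far above the other 3 tumours of its group for both transporters. Its Abca1 level was 3674 normalized counts against 685 to 953, and its Abcg1 level was 1237 against 204 to 246. Abcg1 also stood apart on the log2 scale, at 10.27. In each case the gap to the next tumour took up most of the range of the group (0.911, 0.960 and 0.898 of it). The 12 groups of 4 or 5 tumours were examined on both scales, and about 1 in 20 such groups would be marked by chance. This tumour also had the highest summed signal of the panel, 1365010 normalized counts, and the highest summed macrophage markers, 118142. Without it the MC38 difference of Abcg1 was -0.28 and that of Abca1 -1.40, neither called.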

How the results depend on the processing

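Of 656 member differences under alternatives, 38 were on the other side of the threshold from the value reported, and 0 of those called as reported turned sign. Leaving out 1 tumour gave 1 to 2 members called in MC38, 0 to 3 for the mean of both lines and 0 to 1 between lines in hypoxic tumours, against 1, 2 and 0. Median centring gave 1 (Hsd11b1) for the mean and 1 (Abcg1) between lines in each oxygen class. Positive-control scaling gave 3 members lower in E0771 (Abca1, Hsd11b1 and Apoe), among 129 genes in all, against 0 as deposited. For the mean the same 3 were called with that scaling, among 406 genes in all, against 300 as deposited. All 406 were lower, so most of the panel was called beside them. The fit of MC38 only gave 2 in MC38, among 354 of 712 genes called, 353 of them lower. Without the 3 E0771 tumours of fewest counts, the mean of both lines was -1.84 for Abca1, -0.57 for Abcg1, -1.94 for Hsd11b1 and -1.96 for Apoe. Without the 5 tumours of fewest counts, 0 were called in MC38 and 0 for the mean; both of the last settings leave 1 hypoxic E0771 tumour, assumed to vary like the others. The causes were not tested. On the deposited scale more correlations passed: Abca1 with Abcg1 0.799 and Hsd11b1 0.592, Apoe with Abcg1 0.800 and Hsd11b1 0.559. On that scale the median r with the 711 other genes was 0.573 for Abca1, 0.433 for Abcg1, 0.513 for Hsd11b1 and 0.560 for Apoe. The values of Abca1 and Apoe with Hsd11b1 were thus near those of a typical gene. On the centred scale Abca1 with Abcg1 also passed without the 5 tumours (0.748). The planned edgeR test was not run, since the deposited columns mix scaled, floored and unscaled values. For the mean of both lines 295 of 300 called genes were lower as deposited and 65 of 145 with median centring; in MC38 346 genes were called as deposited, 190 centred, 210 with positive-control scaling, 0 without the 5 tumours and 171 to 420 without 1 tumour. For the mean 0 to 402 genes were called without 1 tumour. Between lines 112 genes were called in normoxic tumours (59 with a filter at a mean of 50, 36 without the 5) and 56 in hypoxic ones (3 without the 5, 11 without the 3). Depth limits Hsd11b1 most, with 9 estimated counts in MC38 hypoxic 25.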

Other observations

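The lipid genes also varied inside groups with markers of cells other than macrophages. On the centred scale Apoe had a positive r with all 8 T cell markers (median 0.598, highest 0.810 with Cd6), beside a median of 0.455 over the 17 macrophage markers (highest 0.876 with Lyz2). Its values with endothelial markers ran from -0.42 (Cdh5) to 0.791 (Tek; median 0.285, 5 of 7 positive), and those with fibroblast markers from -0.47 (Pdgfrb) to 0.776 (Col1a1; median 0.564, 5 of 7 positive). For Abca1 the median r was 0.537 over macrophage markers and 0.504 over T cell markers. Abcg1 had a median of 0.481 over macrophage and 0.151 over T cell markers. Hsd11b1 had medians of 0.285 and -0.00, and its lowest value was -0.763, with the endothelial gene Cdh5. Over fibroblast markers the medians were 0.498 for Abca1, 0.296 for Abcg1 and 0.327 for Hsd11b1. These are descriptions over 16 tumours that share a panel, a scaling and their depth.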
